A study of Mus musculus with 9 samples.

Results

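The genes described here are 40 genes that mark the cells lining the blood vessels of the liver, out of 12393 genes that had a probe set of their own on the array. They were chosen by name, and a probe set was taken only where the platform annotation gave it exactly 1 gene, which left 56 probe sets with at least 1 for each gene. The RNA came from mouse liver, measured on 9 arrays in 3 groups of 3. NT-Co mice carried no tumour and received vehicle. T-Co mice carried TK-4, a human colon cancer placed in the wall of the cecum, and received vehicle, while T-TSU mice carried the same tumour and received TSU68. The tumour was implanted in male BALB/c nu/nu mice, which have no thymus and few mature T cells but keep B cells, NK cells and macrophages, at 6 weeks of age, and dosing with TSU68 (400 mg/kg/day by mouth) or vehicle began on day 7 and lasted 1 week. The strain, sex and age of the NT-Co mice and any sham operation on them are not described separately, so an effect of the tumour and one of the operation cannot be told apart. The tumour is of human origin and lay outside the liver, and TSU68 without a tumour is not analysed here.

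Liver sinusoids are lined by a specialised endothelium that has open pores and no continuous basement membrane. These sinusoidal cells clear hyaluronan, modified proteins and immune complexes from blood through scavenger receptors such as those encoded by Stab1 and Stab2, and near the central vein they secrete Wnt ligands that set the programme of the neighbouring hepatocytes. The larger vessels carry a continuous endothelium with tight junctions, von Willebrand factor and inducible selectins. TSU68, a small molecule, inhibits several receptor tyrosine kinases, among them the VEGF receptors that endothelial cells carry.

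Values are deposited array intensities on a linear scale. They are listed in the order of the replicate numbers, 8, 10 and 11 for NT-Co, 9, 10 and 13 for T-Co and 2, 12 and 14 for T-TSU. Each gene was represented by its brightest probe set, and differences are given on the log2 scale, as log2(intensity + 7.92), with the standard error (SE) from a limma fit to all 9 arrays. A gene was called changed where limma's p, adjusted by Benjamini-Hochberg over the 15838 probe sets tested, was under 0.05. The brightest probe set passed the intensity filter for 36 of the 40 genes. The other 4, Cd34, Sele, Procr and Maf, were too dim to test. Intensities of different probe sets are not levels that can be set against each other, so comparisons are made within a gene. In whole liver RNA, fewer cells of a type and less RNA per cell cannot be told apart.

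Of the 36 genes tested, Pecam1 rose and S1pr1 fell in T-Co against NT-Co, none was called in T-TSU against T-Co, and S1pr1 was lower in T-TSU than in NT-Co as well. Among all probe sets tested, 6.54% were called in T-Co against NT-Co, 0.0505% in T-TSU against T-Co and 3.85% in T-TSU against NT-Co. The share of the endothelial genes called was near the background of each comparison, also by direction, where 4.16% of probe sets were called higher and 2.38% lower in T-Co against NT-Co, and 1.36% lower in T-TSU against NT-Co. At an unadjusted p under 0.05, limma gave 7 of the 36 higher and 3 lower in T-Co against NT-Co (12.0% and 10.1% of all probe sets), and 1 higher and 7 lower in T-TSU against T-Co (5.08% and 5.39%). In T-TSU against NT-Co 3 of the 36 reached that p in either direction, where 16.9% of all probe sets did. Below the level of single calls, 28 of the 36 genes had a difference above 0 in T-Co against NT-Co, with a median of 0.32, where 50.8% of all probe sets had one and their median was 0.01. Over all 40 genes the median was 0.37. The 3 T-Co arrays lay wholly above the NT-Co arrays for 9 of the 36 genes and wholly below for 3, where 14.4% and 12.5% of all probe sets did so. In T-TSU against T-Co 29 of the 36 had a difference below 0 and 7 above it, where 48.7% of all probe sets lay above 0. The median of the 36 was -0.27, against -0.01 over all probe sets. Every T-TSU array was above every T-Co array for 2 of the 36 and below for 9 (6.75% and 7.39% of all probe sets). Both comparisons use the T-Co arrays, with opposite signs, so these counts do not stand apart from each other. In T-TSU against NT-Co 15 of the 36 lay above 0 (49.9% of all probe sets), the median was -0.03, and the arrays did not overlap for 0 higher and 5 lower genes (12.7% and 11.6%).

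These counts leaned on particular arrays. T-Co replicate 13 held the highest of the 3 T-Co intensities for 27 of the 36 genes, and T-TSU replicate 2 the lowest of the 3 T-TSU intensities for 26. The mean log2 level of the 40 genes, set against the NT-Co mean, was 0.11, 0.22 and 0.59 in T-Co replicates 9, 10 and 13, and -0.29, 0.24 and 0.09 in T-TSU replicates 2, 12 and 14. The NT-Co arrays themselves spread from -0.06 to 0.13, so only T-Co replicates 10 and 13 and T-TSU replicate 12 lay above all of them. Without T-Co replicate 13 the median of T-Co against NT-Co was 0.10, with 23 of 36 above 0. In T-TSU against T-Co, the 7 genes above 0 became 12 without T-Co replicate 13 (median -0.12) and 13 without T-TSU replicate 2 (median -0.12). In T-TSU against NT-Co, 23 of 36 lay above 0 without T-TSU replicate 2, with a median of 0.10.

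**Figure D1:**
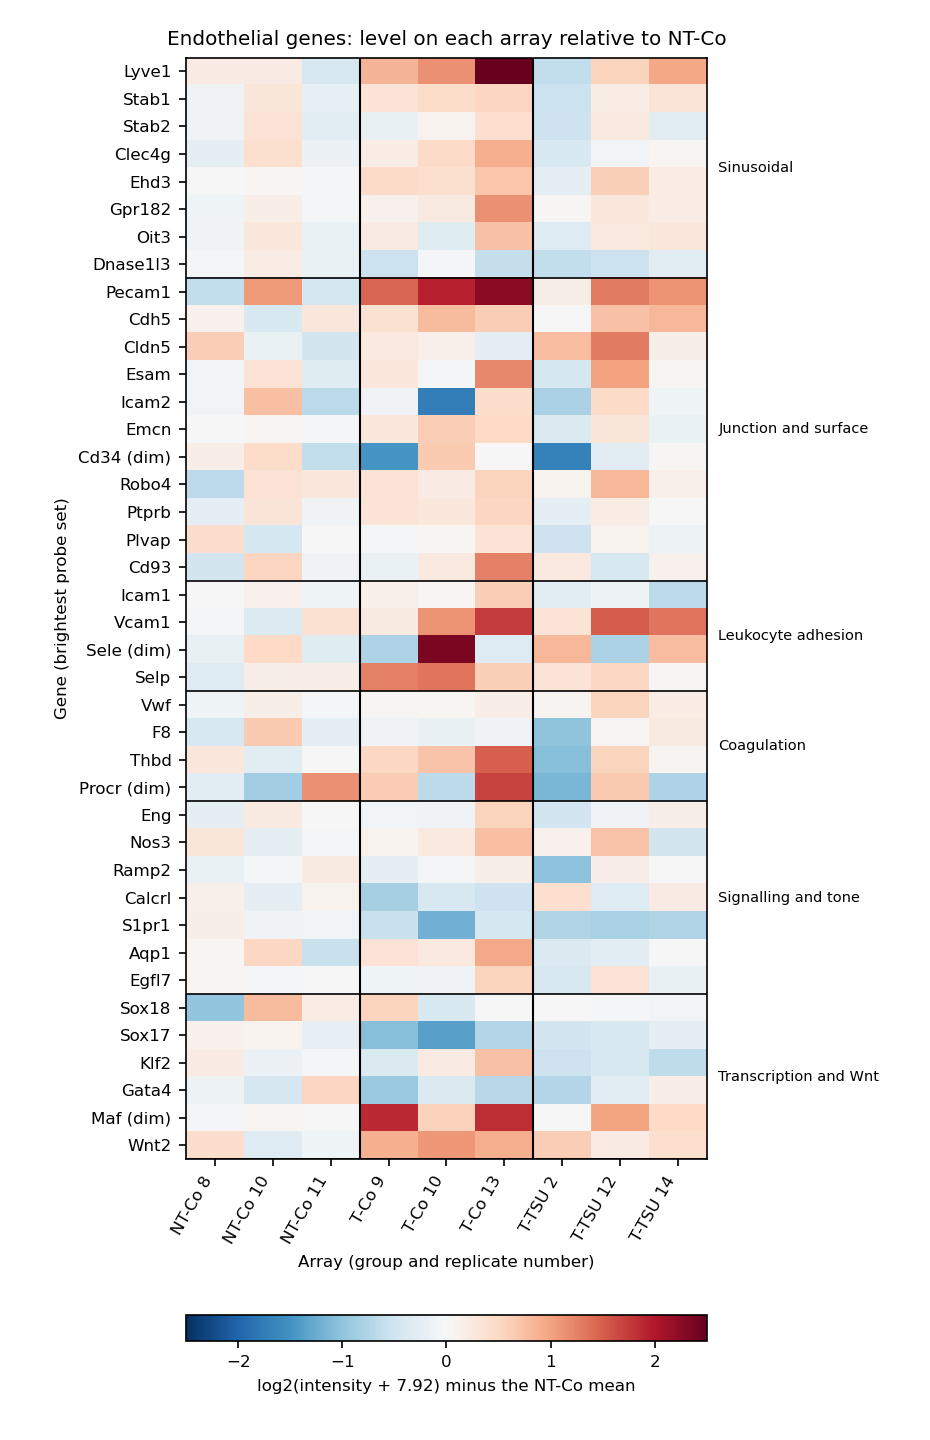
Level of each of the 40 genes (rows, grouped by role) on each of the 9 arrays (columns), as log2(intensity + 7.92) minus that gene's NT-Co mean. Red is above and blue below the NT-Co mean, the colour scale ends at 2.5 in either direction, and genes marked dim were below the filter. T-Co replicate 13 is the reddest column, while the rows of S1pr1, Sox17 and Calcrl are blue in all 3 T-Co arrays.

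RefSeq promoter sequences (GRCm38.p6, 250 bases before to 50 after the start of transcription) were at hand for 19 of the 40 genes. The 4 below belong to genes, picked after their values were seen, in which the arrays of 1 group lay apart from those of both other groups. Icam1 and Klf2 were dimmer on every T-TSU array than on any other array, Stab1 was brightest on the T-Co arrays and Calcrl dimmest on them. Each is written 5′ to 3′ on the gene's own strand, with capitals for matches, on either strand, to 5 motifs: GGAAATTCC, of the NF-kB type, CAGGAAG, of the ETS type, AGATAAG, of the GATA type, CCACCC, of the KLF type, and TAAATTTA, the core of a MEF2 type site. They are Icam1 at chr9:21015690-21015989 (+ strand), Klf2 at chr8:72318812-72319111 (+ strand), Stab1 at chr14:31168592-31168891 (- strand) and Calcrl at chr2:84425217-84425516 (- strand).
Icam1: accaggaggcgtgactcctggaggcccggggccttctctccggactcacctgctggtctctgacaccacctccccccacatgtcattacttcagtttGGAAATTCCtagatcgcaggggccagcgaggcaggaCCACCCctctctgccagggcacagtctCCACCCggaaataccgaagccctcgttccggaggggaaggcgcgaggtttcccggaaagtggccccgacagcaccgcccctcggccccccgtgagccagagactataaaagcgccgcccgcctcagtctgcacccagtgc
Klf2: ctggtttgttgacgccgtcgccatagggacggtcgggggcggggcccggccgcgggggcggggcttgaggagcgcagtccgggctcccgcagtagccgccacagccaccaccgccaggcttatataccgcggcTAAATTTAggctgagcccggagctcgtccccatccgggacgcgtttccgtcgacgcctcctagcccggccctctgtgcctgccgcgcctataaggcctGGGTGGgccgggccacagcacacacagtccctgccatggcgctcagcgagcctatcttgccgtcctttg
Stab1: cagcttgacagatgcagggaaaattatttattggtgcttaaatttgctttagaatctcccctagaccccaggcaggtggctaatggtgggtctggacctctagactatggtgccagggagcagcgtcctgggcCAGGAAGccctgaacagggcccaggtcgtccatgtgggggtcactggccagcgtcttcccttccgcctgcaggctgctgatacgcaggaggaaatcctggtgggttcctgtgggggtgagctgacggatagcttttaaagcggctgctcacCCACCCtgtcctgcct
Calcrl: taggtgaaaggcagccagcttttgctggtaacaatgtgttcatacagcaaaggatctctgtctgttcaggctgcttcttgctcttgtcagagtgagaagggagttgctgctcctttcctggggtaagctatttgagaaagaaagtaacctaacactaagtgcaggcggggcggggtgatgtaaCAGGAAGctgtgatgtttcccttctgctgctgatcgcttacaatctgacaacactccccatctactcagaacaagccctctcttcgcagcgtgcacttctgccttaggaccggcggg
Each motif was searched as those fixed letters, so sites of the same type with other letters were not counted. Of the 19 genes, only Icam1 held GGAAATTCC in its window, starting 153 bases before the start of transcription. These letters were in 0.317% of all 32851 promoter windows of this length. The MEF2 type core was in the Klf2 window, starting 117 bases before, in that of Clec4g as well, and in 0.545% of all windows. The ETS type motif was in the Stab1 and Calcrl windows and in those of 8 of the 19 genes in all (13.3% of all windows). The KLF type motif was in the windows of Icam1, Klf2 and Stab1 and in 10 of the 19 (31.5% of all windows), and the GATA type motif in none of the 19 (3.04%). These counts are by gene and the percentages by window. Counted by window, 9 of the 21 windows of the 19 genes held the ETS type motif and 10 the KLF type motif. The motifs do not overlap each other in these 4 windows. A match says only that the letters occur there.

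The genes of the sinusoidal endothelium itself came first by role. Lyve1, a hyaluronan receptor shared with lymphatic endothelium, had intensities of 77.7, 76.7 and 47.7 on the NT-Co arrays, 125, 156 and 427 on the T-Co arrays and 40.5, 101 and 136 on the T-TSU arrays. All 3 T-Co arrays lay above the NT-Co arrays, replicate 13 far above the other 2, and the T-TSU arrays overlapped with both groups. The difference of 1.52 ± 0.48 in T-Co against NT-Co did not pass (adjusted p = 0.0805, limma), nor did that of -1.22 ± 0.48 in T-TSU against T-Co (0.396). Without T-Co replicate 13 these adjusted p-values were 0.255 and 0.769, the second difference then being -0.70. A second, dimmer probe set of Lyve1 had 69.4, 60.4 and 73.5 on the NT-Co arrays, 127, 61.4 and 220 on the T-Co arrays and 36.8, 152 and 74.3 on the T-TSU arrays. It overlapped between all groups, with smaller differences of 0.77 ± 0.49 (adjusted p = 0.398, limma) and -0.62 ± 0.49 (0.706). Clec4g, which encodes a C-type lectin of liver and lymph node sinus endothelium, had 870.0, 1368 and 942 on the NT-Co arrays, 1186, 1456 and 1949 on the T-Co arrays and 791, 993 and 1075 on the T-TSU arrays. Every T-TSU array was below every T-Co array, while NT-Co replicate 10 lay among the T-Co values. The differences were 0.53 ± 0.21 (adjusted p = 0.175) and -0.66 ± 0.21 (0.318), neither past the threshold. A much dimmer second probe set of Clec4g, below the filter, overlapped between the groups and differed by 0.54 and 0.21.

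Ehd3 encodes an endocytic trafficking protein whose expression marks sinusoidal cells in liver. Its brightest probe set had 574, 596 and 567 on the NT-Co arrays, 809.7, 762 and 935 on the T-Co arrays and 491, 878 and 658 on the T-TSU arrays. The 3 NT-Co arrays lay close together and below all T-Co arrays, and the T-TSU arrays spread across both groups. The difference in T-Co against NT-Co was 0.52 ± 0.19 and was not called (adjusted p = 0.137). A second, slightly dimmer probe set of Ehd3 had 419, 494 and 523 on the NT-Co arrays, 703, 892 and 864 on the T-Co arrays and 484, 858 and 679 on the T-TSU arrays. Again T-Co lay wholly above NT-Co, and this one passed, with a rise of 0.76 ± 0.20 (adjusted p = 0.0446). It passed in 8 of 18 alternative fits, with adjusted p from 0.0225 to 0.157, and among the fits that left out 1 array only without T-Co replicate 9 or T-TSU replicates 2 or 12.

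Stab1, a scavenger receptor that clears oxidised and collagen-derived ligands, had 157, 206 and 143 on the NT-Co arrays, 213, 231 and 244 on the T-Co arrays and 112, 190.2 and 209 on the T-TSU arrays. The T-Co arrays were above all the others, and the difference from NT-Co was 0.44 ± 0.25 (adjusted p = 0.333). Its relative Stab2, the main hyaluronan clearance receptor, had intensities of 436, 598 and 386 in NT-Co that overlapped with 406, 497 and 625 in T-Co, with a difference of 0.11 ± 0.24. Gpr182, an atypical chemokine receptor of sinusoidal cells (0.50 ± 0.25), and Oit3, a secreted protein made by sinusoidal endothelium (0.21 ± 0.28), overlapped too, and both were brightest on T-Co replicate 13. Dnase1l3, a DNase that degrades chromatin in plasma, was the 1 gene of the 8 with a negative difference in T-Co against NT-Co (-0.39 ± 0.21). Its T-TSU intensities of 163, 175 and 208 were all below the NT-Co ones of 251, 294 and 228, with a difference of -0.48 ± 0.21 that did not pass (adjusted p = 0.272). Of the 8 sinusoidal genes limma called 0 by the brightest probe set in any of the 3 comparisons. At its unadjusted p under 0.05, 3 were higher in T-Co against NT-Co and 2 lower in T-TSU against T-Co (12.0% and 5.39% of all probe sets). The medians were 0.47 and -0.34 in these 2 comparisons, where those of all probe sets were 0.01 and -0.01. In T-TSU against T-Co all 8 lay below 0, where 48.7% of all probe sets lay above it. There all 11 tested Kupffer cell and macrophage markers and 8 of 9 hepatocyte markers lay below 0 too.

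Genes of endothelial junctions and surface followed. Pecam1 encodes an adhesion molecule at the borders between endothelial cells that platelets and leukocytes also carry. Its intensities were 16.1, 68.8 and 19 on the NT-Co arrays, 93.1, 133 and 168 on the T-Co arrays and 32.8, 82 and 71.9 on the T-TSU arrays. Every T-Co array was above every array of the other groups, and NT-Co replicates 8 and 11 were dim. Pecam1 rose by 1.89 ± 0.50 in T-Co against NT-Co (adjusted p = 0.0425, limma), from a mean intensity of 34.6 ± 29.6 to one of 132 ± 37.6 (SD). The size ran from 1.36 to 2.42 over the alternative fits. The T-TSU arrays lay below all T-Co arrays, and that difference of -1.04 ± 0.50 was not called (adjusted p = 0.5). The rise in T-Co passed in 8 of 18 alternative fits. It passed without NT-Co replicate 10 or T-TSU replicate 2, and did not pass when any other array was left out, with adjusted p up to 0.144 (without NT-Co replicate 11). Of the platelet and megakaryocyte markers, limma called 0 of 5 tested, none of them at an unadjusted p under 0.05 in T-Co against NT-Co, with summed intensities of 463 to 787 in NT-Co, 641 to 816 in T-Co and 575 to 895 in T-TSU.

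Cdh5, the cadherin of endothelial adherens junctions, had 121, 83.1 and 136 on the NT-Co arrays, 147, 198 and 174 on the T-Co arrays and 113, 191 and 204 on the T-TSU arrays. All T-Co arrays exceeded the NT-Co arrays, T-TSU replicates 12 and 14 did so too, and the differences were 0.59 ± 0.28 in T-Co (adjusted p = 0.228) and 0.53 ± 0.28 in T-TSU (0.371) against NT-Co. A dimmer second probe set of Cdh5, below the filter, differed by -0.94 in T-Co against NT-Co, in the other direction. Ptprb, a phosphatase that opposes the angiopoietin receptor, had 433, 642 and 482 on the NT-Co arrays, 649, 612 and 748 on the T-Co arrays and 434, 579 and 508 on the T-TSU arrays. Its T-TSU arrays lay below all T-Co arrays, with a difference of -0.40 ± 0.18 (adjusted p = 0.472). Emcn, a sialomucin of capillaries and veins, had 63.3, 65.5 and 61.7 in NT-Co. Its T-Co intensities of 78.3, 101 and 92.8 lay above these, with a difference of 0.46 ± 0.31 (adjusted p = 0.434).

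The other junction and surface genes tested overlapped between the groups in every comparison. They were Cldn5, the claudin of endothelial tight junctions, Esam and Icam2, adhesion molecules of endothelial contacts, Robo4, a guidance receptor of endothelium, Plvap, which forms the diaphragms of fenestrae, and Cd93, a C-type lectin-like receptor. Their differences ran from -0.46 (Icam2) to 0.47 (Esam) in T-Co against NT-Co. Cldn5 had the largest difference of the 6 in T-TSU against T-Co, 0.69 ± 0.34 (adjusted p = 0.508), from 124, 114 and 85.7 to 182, 262 and 116. Cd34, a mucin of capillaries that stays low in healthy sinusoids, had intensities from 5.43 to 60.5 across the 9 arrays and was not tested.

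The genes that capture leukocytes split. Selp encodes the selectin that endothelium and platelets store and expose on activation. It had 32, 47.6 and 48.5 on the NT-Co arrays, 112, 118 and 67.6 on the T-Co arrays and 55.7, 64 and 42.9 on the T-TSU arrays. The T-Co arrays were above all arrays of the other 2 groups, and neither difference passed: 1.06 ± 0.36 against NT-Co (adjusted p = 0.105) and -0.76 ± 0.36 for T-TSU against T-Co (0.493). A dimmer second probe set of Selp, below the filter, overlapped between the groups and differed by 0.28 and 0.17. Vcam1, an integrin ligand of activated endothelium that stellate cells and macrophages can express, had 139, 111 and 190.1 on the NT-Co arrays, 169, 323 and 497 on the T-Co arrays and 183, 421 and 373 on the T-TSU arrays. In both tumour groups 2 of 3 arrays lay above all NT-Co arrays, with differences of 1.03 ± 0.38 in T-Co (adjusted p = 0.136) and 1.06 ± 0.38 in T-TSU (0.17). It passed in T-Co against NT-Co only without T-Co replicate 9 (1.44, adjusted p = 0.0396). The second probe set of Vcam1 had 130.0, 111 and 118 on the NT-Co arrays, 218, 235 and 353 on the T-Co arrays and 102, 272 and 227 on the T-TSU arrays, and its T-Co arrays did not overlap with NT-Co (1.09 ± 0.32, adjusted p = 0.0641).

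Icam1, another integrin ligand, which endothelium, leukocytes and hepatocytes can induce through NF-kB, followed a different order. Its intensities were 294, 317 and 274 on the NT-Co arrays, 324, 305 and 456 on the T-Co arrays and 245, 268 and 181 on the T-TSU arrays. The T-TSU arrays were below all 6 arrays of the other groups. The differences were -0.62 ± 0.21 against T-Co (adjusted p = 0.325) and -0.36 ± 0.21 against NT-Co (0.442), and neither was called. Sele, the selectin that endothelium makes only on activation, was listed between 1.58 and 76.5 and was too dim to test. The Icam1 window shown above carries the NF-kB type motif, whose part in these values was not tested. Of 11 tested genes linked to NF-kB and its activation of endothelium, 2 were called in T-Co against NT-Co, both higher, where 4.16% of all probe sets were. The median difference of the 11 was 0.17, with 7 above 0 and 4 below. Nfkbia, which encodes the inhibitor of NF-kB and is itself a target, had 2322, 2806 and 3667 on the NT-Co arrays, 5152, 6109 and 4978 on the T-Co arrays and 5642, 4858 and 4416 on the T-TSU arrays, and rose by 0.90 ± 0.17 in T-Co (adjusted p = 0.00768) and by 0.78 ± 0.17 in T-TSU (0.0214) against NT-Co. The latter did not pass without NT-Co replicates 8 or 10 or T-TSU replicates 2 or 12 (0.0668 to 0.0907). It also failed with the mean of all probe sets of the gene (0.57, adjusted p = 0.123, limma). Without the intensity trend neither Nfkbia call passed (0.0511 in T-Co and 0.0972 in T-TSU). Il1r1, the signalling receptor of interleukin-1, had 617, 709.7 and 822 on the NT-Co arrays, 1197, 1732 and 2932 on the T-Co arrays and 899, 1988 and 1791 on the T-TSU arrays. The arrays of both tumour groups lay above all NT-Co arrays and overlapped with each other. It rose by 1.35 ± 0.32 in T-Co (adjusted p = 0.0286), which did not pass without any 1 of the 3 NT-Co arrays or T-Co replicates 10 or 13 (0.0568 to 0.106). Without the intensity trend (0.0925) or with a robust trend (0.0542) this rise of Il1r1 did not pass either. In T-TSU it differed by 1.04 ± 0.32 from NT-Co (0.106), and passed without T-TSU replicate 2 (0.029), without T-Co replicate 13 (0.0432) and with only those 2 groups fitted (0.0417). Cxcl1, a neutrophil chemokine, had 1812, 354 and 276 on the NT-Co arrays, 928, 3231 and 4340.2 on the T-Co arrays and 792, 603 and 312 on the T-TSU arrays, so that NT-Co and T-Co overlapped while all T-TSU arrays lay below T-Co (-2.13 ± 0.67, adjusted p = 0.304).

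**Figure D2:**
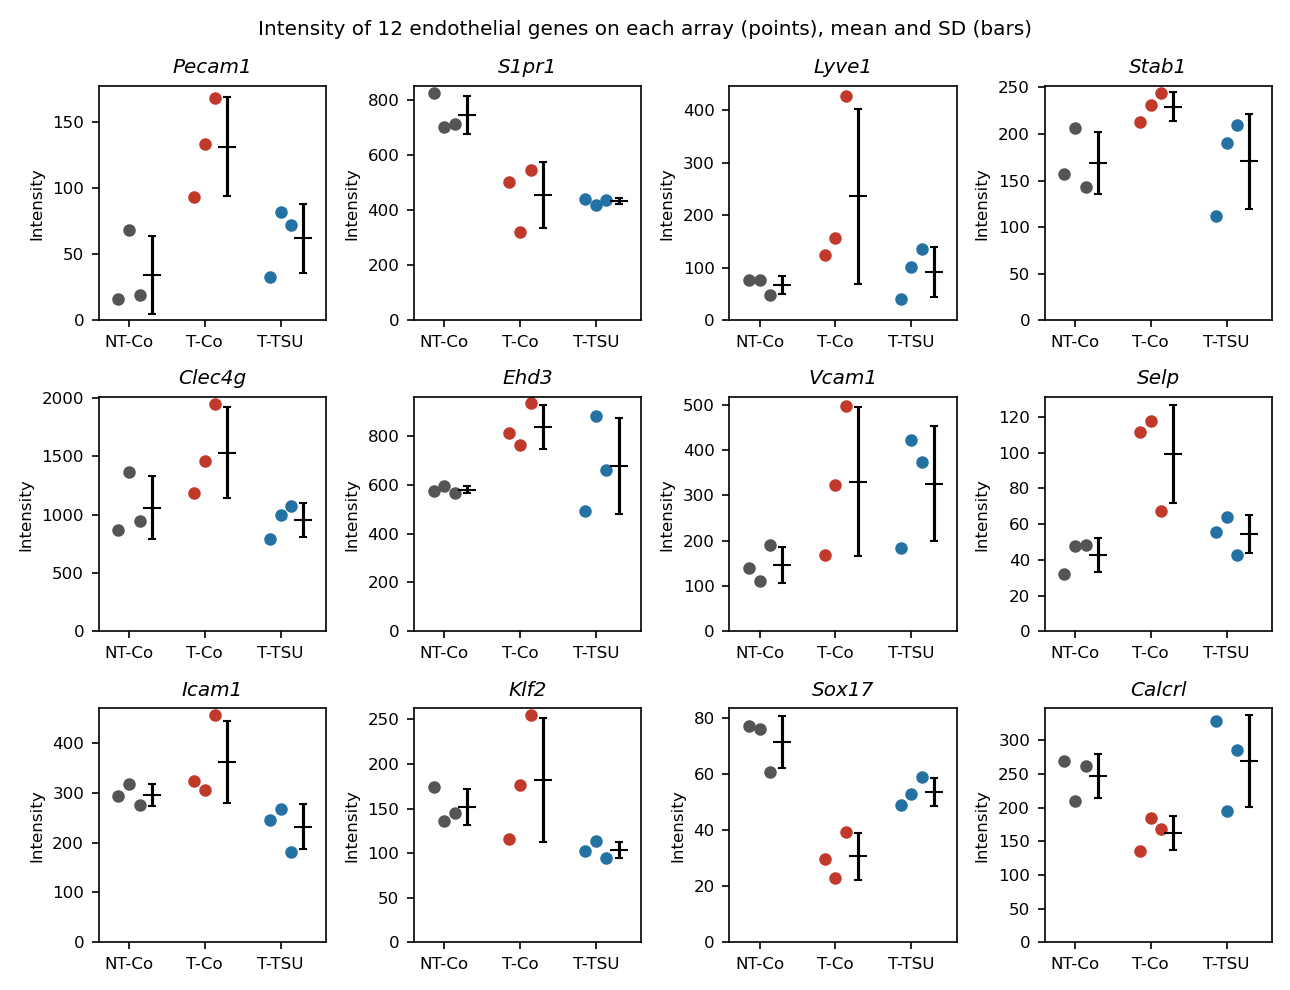
Intensity (vertical axes, linear, from 0) of 12 endothelial genes on the 3 arrays of each group, as points, with the group mean and SD as bars beside them. Pecam1 in T-Co sits above both other groups, S1pr1 is lower in both tumour groups than in NT-Co, and the T-TSU points of Icam1 and Klf2 lie below all others.

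Of the 3 tested genes of coagulation, limma called 0, with 1 at an unadjusted p under 0.05, Thbd, lower in T-TSU against T-Co (5.39% of all probe sets). Thbd encodes thrombomodulin, which turns thrombin into an activator of protein C. It had 74.8, 49.1 and 59.8 on the NT-Co arrays, 89.6, 104 and 185 on the T-Co arrays and 24.8, 92 and 63.8 on the T-TSU arrays. The T-Co arrays were above the NT-Co arrays, and the differences were 0.91 ± 0.43 (adjusted p = 0.244) and -1.06 ± 0.43 for T-TSU against T-Co (0.416). Vwf, the carrier of factor VIII made by larger vessels and megakaryocytes, had 60.4, 73.4 and 64.8 on the NT-Co arrays, 67.5, 68.1 and 74.8 on the T-Co arrays and 69.5, 101 and 76 on the T-TSU arrays. T-TSU replicate 12 was the highest, the groups overlapped in every comparison, and the differences were 0.08 ± 0.30 (adjusted p = 0.916) and 0.19 ± 0.30 (0.871) in T-Co against NT-Co and in T-TSU against T-Co. F8, factor VIII itself, made in the liver by sinusoidal cells, had 96, 206 and 107 on the NT-Co arrays, 120.1, 113 and 121 on the T-Co arrays and 60.3, 134 and 152 on the T-TSU arrays, with full overlap and differences of -0.12 ± 0.36 and -0.12 ± 0.36. Procr, the protein C receptor, was too dim to test.

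Among genes of endothelial signalling and vascular tone, S1pr1 was the member called in 2 comparisons and by the F test across the 3 groups (adjusted p = 0.0476, where 5.70% of probe sets were called). It encodes a receptor for sphingosine 1-phosphate that stabilises endothelial junctions and that lymphocytes also use to leave lymphoid organs. The intensities were 824, 699.6 and 711 on the NT-Co arrays, 502, 319.6 and 543 on the T-Co arrays and 439, 419.6 and 437 on the T-TSU arrays. Every array of both tumour groups lay below every NT-Co array. S1pr1 fell by 0.73 ± 0.19 in T-Co (adjusted p = 0.0432) and by 0.77 ± 0.19 in T-TSU (0.0477), so that the levels were 1.66-fold and 1.71-fold lower, and T-TSU against T-Co differed by -0.04 ± 0.19. The direction held in all 19 alternatives of both comparisons, but the call passed in 9 of 19 for each. With 1 array left out, the T-Co call passed only without T-Co replicates 9 or 13 and the T-TSU call only without T-Co replicates 10 or 13, and adjusted p reached 0.153 and 0.173 without NT-Co replicate 8. The 2 comparisons share the NT-Co arrays. Of the lymphocyte markers limma called 0 of 4 tested, with 1 (Cd79b, higher in T-Co against NT-Co, as 12.0% of all probe sets were) at an unadjusted p under 0.05. Their summed intensities were 391 to 642 in NT-Co, 487 to 573 in T-Co and 364 to 538 in T-TSU.

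Calcrl, the receptor that responds to adrenomedullin when paired with Ramp2, had 269, 209 and 261 on the NT-Co arrays, 135, 185 and 168 on the T-Co arrays and 329, 195 and 285 on the T-TSU arrays. The T-Co arrays were below all 6 others. The differences of -0.58 ± 0.23 against NT-Co (adjusted p = 0.158) and 0.68 ± 0.23 for T-TSU against T-Co (0.325) did not pass, and a dimmer second probe set differed by 0.47 and 0.78. The partner Ramp2 overlapped between the groups (-0.05 ± 0.31 and -0.24 ± 0.31). Aqp1, a water channel of endothelium, bile ducts and red cells, had 418, 582 and 272 on the NT-Co arrays, 520.3, 478 and 783 on the T-Co arrays and 312, 335 and 402 on the T-TSU arrays. Its T-TSU arrays were below all T-Co arrays, with a difference of -0.73 ± 0.26 (adjusted p = 0.364). Of the bile duct markers limma called 0 of 2 tested, with Sox9 lower in T-TSU at an unadjusted p under 0.05, with sums of 211 to 309, 232 to 295 and 209 to 243 in NT-Co, T-Co and T-TSU. The 3 tested erythroid markers are given with the other cell types below.

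Eng, a co-receptor of the TGF-beta family, had a difference of 0.13 ± 0.23 in T-Co against NT-Co, and that of its second probe set had the other sign (-0.29 ± 0.25). Nos3, the endothelial nitric oxide synthase, differed by 0.36 ± 0.33 and -0.25 ± 0.33 and overlapped between all groups. Egfl7, a secreted endothelial matrix protein, was read by 4 probe sets that disagreed. The brightest had 219.6, 204 and 213 on the NT-Co arrays, 197, 198 and 317 on the T-Co arrays and 158, 275 and 185 on the T-TSU arrays, overlapping throughout, and differed by 0.12 ± 0.25 in T-Co against NT-Co. The second had 64.2, 122 and 83.7 on the NT-Co arrays, 193, 157 and 225 on the T-Co arrays and 139, 157 and 125 on the T-TSU arrays. There every array of both tumour groups exceeded every NT-Co array, the highest T-TSU value equalled the lowest T-Co value to 3 digits, and it rose by 1.06 ± 0.26 in T-Co against NT-Co (adjusted p = 0.0336), a call that passed in 11 of 18 alternative fits and failed without NT-Co replicates 8 or 11 or T-Co replicates 9 or 13 (0.0736 to 0.124). The third differed by 1.48 ± 0.70 and the fourth by -0.19 ± 0.34, neither called. Counted by probe set, 4 of the 45 tested (8.89%) were called in T-Co against NT-Co, namely those of Pecam1, S1pr1, Ehd3 and Egfl7, beside the background of 6.54%.

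The transcription factors and the Wnt ligand held both directions. Sox17, a factor of arterial and other endothelium, had 77.4, 76.3 and 60.9 on the NT-Co arrays, 30, 22.8 and 39.4 on the T-Co arrays and 49, 53.1 and 58.9 on the T-TSU arrays. The 3 groups did not overlap, with T-Co lowest, T-TSU between and NT-Co highest. The gene was dim, and its T-Co intensities lay near the filter level of about 36.2. The difference of -1.06 ± 0.38 in T-Co against NT-Co was not called (adjusted p = 0.119), and it passed only without the intensity trend in the variance (0.0276). The second probe set of Sox17 differed by -0.66 ± 0.50, with overlap. Sox18, a related endothelial factor, overlapped between all groups (0.05 ± 0.42). Gata4, which keeps sinusoidal cells from turning into continuous capillary endothelium and is also active in stellate cells, had 162, 131 and 259.7 on the NT-Co arrays, 89.4, 137 and 106 on the T-Co arrays and 103, 144 and 198 on the T-TSU arrays, with a difference of -0.66 ± 0.31 (adjusted p = 0.23).

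Klf2, a factor that flow induces in endothelium and that raises Nos3 and Thbd, had 174, 136 and 145 on the NT-Co arrays, 116, 176 and 255 on the T-Co arrays and 103, 113 and 94.9 on the T-TSU arrays. T-Co was widely spread, and each T-TSU array was below all 6 others. The differences were -0.71 ± 0.27 against T-Co (adjusted p = 0.396) and -0.51 ± 0.27 against NT-Co (0.389), without a call. Klf4, a related flow-responsive factor named here after its values were seen, had 69.8, 46.6 and 27.7 on the NT-Co arrays, 67.4, 36 and 88.3 on the T-Co arrays and 19.8, 9.73 and 18.8 on the T-TSU arrays, with a difference of -1.53 ± 0.52 for T-TSU against T-Co (adjusted p = 0.33). It was dim, and its T-TSU arrays too lay below all 6 others. Wnt2, which central vein and sinusoidal endothelium supplies to hepatocytes, had 48.3, 25.2 and 30.9 on the NT-Co arrays, 68.9, 80.5 and 70.8 on the T-Co arrays and 55.7, 40.1 and 48.1 on the T-TSU arrays. The T-Co arrays were above all others, with differences of 0.96 ± 0.38 (adjusted p = 0.166) and -0.55 ± 0.38 (0.665). Wnt2 was dim, and its NT-Co mean of 34.8 was below the filter level. Maf, a factor of sinusoidal identity, was too dim to test. It was listed at 4.52, 5.32 and 4.82 on the NT-Co arrays, 38.4, 11.2 and 38.2 on the T-Co arrays and 4.72, 17.4 and 10.2 on the T-TSU arrays.

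**Figure D3:**
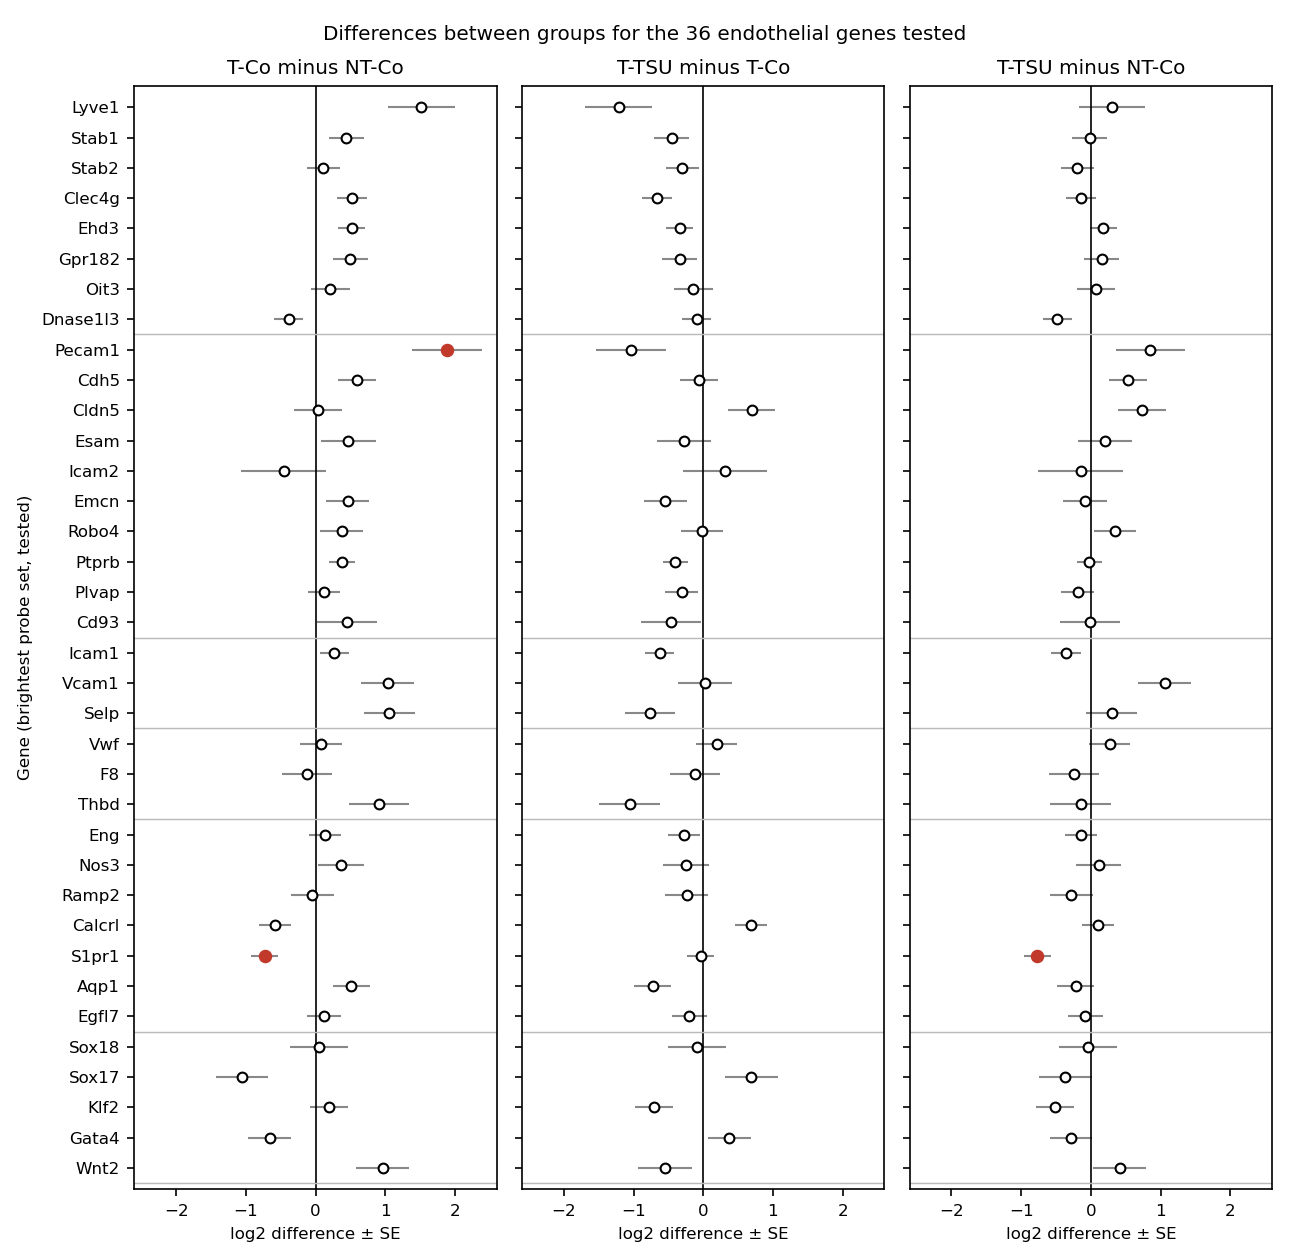
The log2 difference (horizontal axis, with its SE as a bar) of the 36 tested endothelial genes, with 1 panel each for T-Co against NT-Co, for T-TSU against T-Co and for T-TSU against NT-Co. Filled red points passed an adjusted p of 0.05 and open points did not, so Pecam1 and S1pr1 are filled in the first panel, none in the middle panel and S1pr1 in the last.

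Other genes of endothelial signalling were counted from lists of receptors, ligands, transcription factors and NF-kB genes. Of the 12 tested receptors limma called 0 in the 3 comparisons, with 2, 3 and 0 at an unadjusted p under 0.05 in T-Co against NT-Co, in T-TSU against T-Co and in T-TSU against NT-Co. Of all probe sets, 22.2%, 10.5% and 16.9% reached that p in the same comparisons, in either direction. Flt1, the VEGF receptor that acts partly as a decoy, had 52.8, 96.7 and 45 on the NT-Co arrays, 116, 164 and 186 on the T-Co arrays and 21.6, 57.5 and 102 on the T-TSU arrays. It was brighter on all T-Co arrays than on any other array, with differences of 1.21 ± 0.46 (adjusted p = 0.145) and -1.43 ± 0.46 (0.315) for T-TSU against T-Co. Nrp1, a VEGF co-receptor, had 1882, 2154 and 2165 on the NT-Co arrays, 1549, 1781 and 1424 on the T-Co arrays and 2374, 1821 and 2247 on the T-TSU arrays. Here the T-Co arrays were dimmer than all others, with differences of -0.38 ± 0.14 (0.134) and 0.43 ± 0.14 (0.32). Kdr, the main signalling receptor for VEGF, named here outside the rule after its values were seen, differed by 0.11 ± 0.22 and -0.37 ± 0.22. Of 11 tested ligands 1 was called, higher in T-Co against NT-Co, where 4.16% of all probe sets were called higher. Bmp2, which sinusoidal cells secrete to raise hepcidin in hepatocytes, had 109, 164 and 137 on the NT-Co arrays, 259, 335 and 394 on the T-Co arrays and 173, 215 and 216 on the T-TSU arrays, and its 3 groups did not overlap, with T-TSU between the other 2. It rose by 1.22 ± 0.22 in T-Co against NT-Co (adjusted p = 0.00743), which passed in all 19 alternatives, and the T-TSU difference from T-Co was -0.68 ± 0.22 (0.321). Vegfa, the main ligand of Kdr, differed by -0.28 ± 0.23 and 0.40 ± 0.23, and Vegfb, a ligand of Flt1, by 0.43 ± 0.32 and -0.12 ± 0.32. Among 15 tested transcription factors 0 were called in the 3 contrasts by limma, with 2, 4 and 3 at an unadjusted p under 0.05, beside those same shares. Closest was Hhex, a homeobox factor that hepatocytes share, with 3079, 1327 and 1918 on the NT-Co arrays, 1309.8, 859.9 and 970.0 on the T-Co arrays and 2488, 3335 and 3082 on the T-TSU arrays. The T-Co arrays were below all others, and the differences were -0.94 ± 0.26 (adjusted p = 0.0503) and 1.51 ± 0.26 (0.0593), while the F test over the 3 groups called it (0.0129). Ets1 differed by 0.57 ± 0.20 in T-Co against NT-Co (0.117) and Ets2 by -0.74 ± 0.24 in T-TSU against T-Co (0.317).

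Markers of other liver cells moved between the same groups, and their part in the endothelial differences was not tested. For Kupffer cells and macrophages, 11 of 12 listed genes were on the array with none at 0 on any array, and their summed intensity was 8497 to 11677 in NT-Co, 11203 to 17099 in T-Co and 5075 to 11079.6 in T-TSU. In T-Co against NT-Co limma called 1 of 11, Cd163, higher (4.16% of all probe sets were called higher). Cd163 did not pass without NT-Co replicates 8, 10 or 11 or T-Co replicate 13 (0.0514 to 0.112), nor without the intensity trend (0.093). In T-TSU against T-Co limma called 0, with 9 lower at an unadjusted p under 0.05 (5.39% of all probe sets). All 11 differences were below 0 there, with a median of -0.87. T-Co replicate 13 and T-TSU replicate 2, which held the extremes of the endothelial genes, held those of this list too, at log2 levels of 1.04 and -0.88 relative to the NT-Co mean. For hepatocytes, the main cells of liver, 9 of 10 listed markers were on the array with none at 0, at summed intensities of 205568 to 227407, 257793 to 262861 and 205919 to 235710. In T-Co against NT-Co 4 of 9 (Cps1, Arg1, Tat and Ahsg) were called higher, where 4.16% of all probe sets were. Tat did not pass without any 1 of the NT-Co arrays or T-Co replicates 9 or 13 (0.0535 to 0.0746), nor Ahsg without NT-Co replicate 8 (0.0613). Without the intensity trend none of the 4 passed in limma (adjusted p from 0.0834 to 0.0957). Cps1 (0.053) and Ahsg (0.052) also failed without a filter on dim probe sets, and Cps1 with arrays centred on their medians (0.0506). Stellate cell markers summed to 9376 to 10431, 8064 to 8689.7 and 8820.0 to 10535. Of 10 tested, 1, Col3a1, was called lower in T-Co against NT-Co (2.38% of all probe sets were called lower), though not without NT-Co replicate 8 (0.0544). The neutrophil list summed to 680.0 to 1038, 942 to 2329 and 605 to 989, and limma called 0 of 6 tested genes in T-Co against NT-Co. At an unadjusted p under 0.05, 2 (S100a8 and S100a9) were higher there, as were 12.0% of all probe sets. Of 3 tested erythroid genes Alas2 was called lower in T-Co, though not without NT-Co replicate 11 (0.0585), the list summing to 2226 to 2564, 461 to 1246 and 1393 to 2359. Of the mesothelial markers limma called 0 of 3 tested, none of them at an unadjusted p under 0.05 in T-Co against NT-Co, with sums of 78.9 to 254, 164 to 214 and 86.3 to 202.

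**Figure D4:**
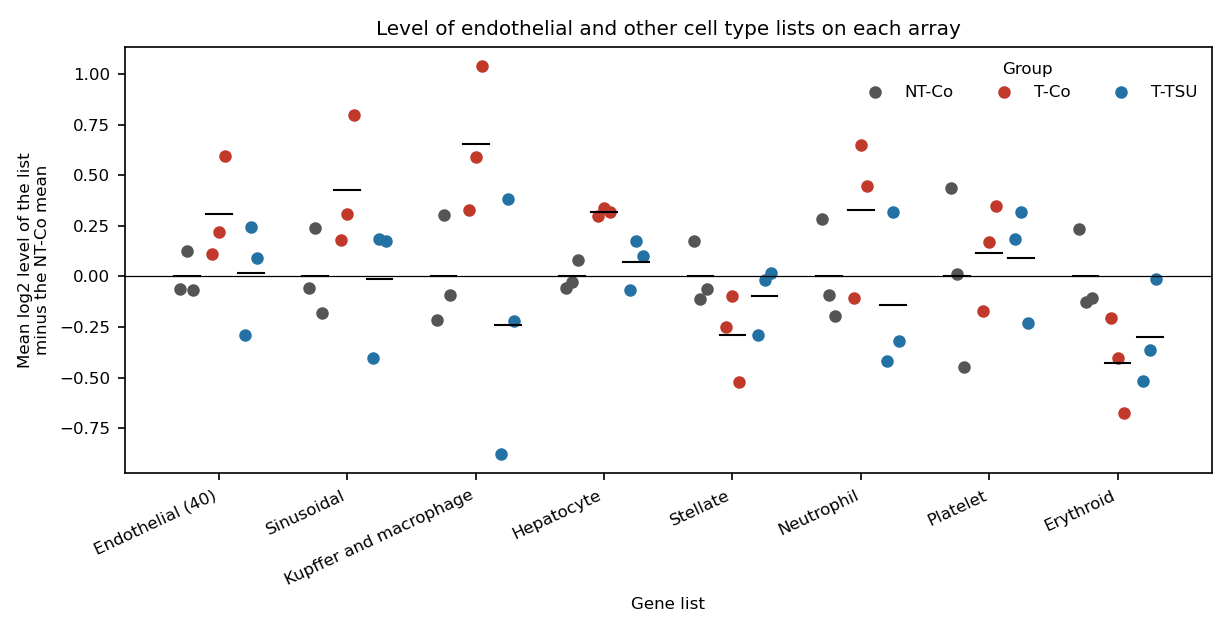
Mean log2 level of each gene list on each array (points, coloured by group), set against the NT-Co mean of that list, with group means as short lines. The highest endothelial and Kupffer cell points are those of T-Co replicate 13 and the lowest those of T-TSU replicate 2, and the hepatocyte points of T-Co lie together above NT-Co.

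The arrays also differed in a measure of RNA integrity and labelling. For beta-actin the ratio of 3' to 5' intensity was 2.26 to 3.14 in NT-Co, 1.88 to 2.10 in T-Co and 1.79 to 2.16 in T-TSU, so both tumour groups lay below NT-Co, as the S1pr1 intensities did. The same ratio for GAPDH overlapped between the groups, at 0.736 to 0.798 in NT-Co, 0.734 to 0.809 in T-Co and 0.707 to 0.851 in T-TSU. The part of the beta-actin ratio in the differences from NT-Co was not tested. Array medians lay between 107 and 119, all 9 arrays had the same trimmed mean of 500.3, and T-Co replicate 13 stood apart from the others on the second principal component (16.3% of the variance). With 3 arrays a group the number of arrays limits the precision, and a p that missed the threshold does not show that the levels were alike.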

How the data were processed

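Liver RNA of 9 samples was read on arrays of 3' probe sets. The deposited values are linear intensities, 1 per probe set and sample, which the authors had already scaled, since each array has the same mean, 500.3, once the lowest and highest 2% are set aside. The summarisation software was not found in the labels or the table, and no detection calls were used. Groups come from the sample titles. The labels do not say that samples are separate animals, so the p-values refer only to the spread between the samples measured, which may be technical.

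From 22690 probe sets, 64 controls were removed. The platform annotation, which can be old, named exactly 1 gene for 20380, several for 691 and none for 1555. All 40 genes were found in the RefSeq table by gene identifier. The 10th percentile of intensity, 7.92, was added before taking log2, so changes of dim genes are understated. The 30% of probe sets lowest in mean log2 value (those with intensities under about 36.2) were dropped, and 15838 stayed. limma 3.58.1 (R 4.3.3) fitted 1 mean per group with 6 residual degrees of freedom and an intensity trend in the variance prior. Two-sided p-values were adjusted by the Benjamini-Hochberg method over every probe set tested, and the procedure was tested on simulated data.

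The genes, lists and tests were chosen with earlier results of these data known. All array values are given for the endothelial and pathway genes called, for the 2 of smallest p for tumour and for drug in each role and for the brightest of each role, and the others are given in brief. Alternatives changed the normalization, pseudocount, filter, variance prior, groups fitted, arrays and the summary over probe sets, and their effect is given in the closing section.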

Additional observations from a re-analysis of the deposited data

How the results depend on the processing

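No paired analysis was possible because the groups share at most 1 replicate number. Of the 40 endothelial genes, T-TSU against T-Co had 0 called in every alternative. The 2 calls in T-Co against NT-Co, Pecam1 and S1pr1, became 0 without a filter on dim probe sets and when only the 2 groups compared were fitted. With the filter at the median 25 of the genes were tested, Pecam1 not among them, and 1 passed, S1pr1. Without the intensity trend neither passed (0.0745 and 0.0911) and Sox17 did (0.0276), 1 call in all. Leaving out 1 array gave 0 to 2, and the 2 without T-Co replicate 9 were S1pr1 and Vcam1. The 1 call in T-TSU against NT-Co became 0 with arrays centred on their medians, without a filter and without the trend. It was 0 or 1 with an array left out. The 1 call of the F test became 0 with a pseudocount of 1, without a filter, without the trend and with the mean of all probe sets of a gene, and 0 to 1 with 1 array left out. Over all probe sets, the 1036 calls in T-Co against NT-Co became 473 without the trend, 511 with the mean of all probe sets of a gene, and 445 to 1016 with 1 array left out. The 609 in T-TSU against NT-Co became 265, 293 and 287 to 793 in the same settings, and the 902 of the F test 312, 426 and 355 to 1007. With the mean of all probe sets of a gene, genes were counted and not probe sets, so 511, 293 and 426 have another base. The 8 calls in T-TSU against T-Co became 1 after quantile normalization, 25 with a pseudocount of 32, 14 with a robust trend and 0 with centred arrays, without a filter, without the trend, with only those 2 groups or with the mean of all probe sets, and 0 (without NT-Co replicates 8 or 11 or T-TSU replicates 2 or 14) to 58 (without T-TSU replicate 12) with 1 array left out. The endothelial genes above 0 numbered 23 to 28 in T-Co against NT-Co with 1 array left out. In T-TSU against T-Co they numbered 5 to 13 and, with the filter at the median, 4 of the 25 genes then tested, and in T-TSU against NT-Co 12 to 23. The alternative counts of genes above 0 were chosen after seeing the data. Over all single genes followed, the sign differed from the reported one in 23, 29 and 37 of 918 alternative values for the tumour comparison, T-TSU against T-Co and T-TSU against NT-Co. No called gene reversed. The cause of these changes was not tested. The labels give no batch, and the number of arrays limits the precision.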
